A study of Mus musculus with 6 samples.

Results

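The 10 genes described here mark phagocytes of the innate immune system in libraries made from thymocytes: 7 genes of resident macrophages (Csf1r, Adgre1, Lyz2, Cd68, C1qa, C1qb and C1qc) and 3 genes of granulocytes (Mpo, S100a8 and S100a9). They were chosen by symbol, and all 10 were found among the 22298 genes listed in the deposited tables. The libraries came from C57BL/6 mice without treatment, and the sample names give double-negative (DN) thymocytes, the immature T cell precursors with neither CD4 nor CD8 on their surface, while the protocol gives sorted DN2 cells, an early stage of them. Toxf/fPdcd1Cre mice carry recombination sites around Tox as well as a Cre transgene or allele that the labels name after Pdcd1, which encodes PD-1, with no further detail of what drives it, and gave 3 libraries, replicates 1 and 2 at 3 weeks of age and replicate 3 at 4 weeks. Toxf/f mice carry the floxed Tox alleles only and had the same ages, but the tables of their replicates 1 and 2 were identical and carried the same column name, so they count as 1 library, called the shared Toxf/f library, and Toxf/f has 2 distinct libraries. No label says how many mice gave each library, so p-values describe no more than how these libraries vary. Replicate 3 of each genotype differed in age from the others. Toxf/fPdcd1Cre replicates 1 and 2 held 1 and 843 counts of Ddx3y, a gene of chromosome Y. The distinct libraries of a genotype were therefore not technical repeats of 1 sample.

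Macrophages of the thymus take up the many thymocytes that die during selection. They depend on signals through the receptor encoded by Csf1r, carry F4/80 (Adgre1) on their surface, digest what they engulf in lysosomes marked by Cd68, and are a main source of C1q, the first component of complement, which binds dying cells. Granulocytes, of which neutrophils are the most numerous, make myeloperoxidase (Mpo) early in their development and hold the calcium-binding proteins S100A8 and S100A9 in large amounts. These genes serve here as markers of phagocytes, and whether T cell precursors made part of their RNA was not tested.

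RNA of other cells was present in all of the libraries. Total estimated counts ranged from 14245492 to 16199195 per library. Cd8b1, a chain of the CD8 receptor, averaged 773 ± 119 FPKM (fragment counts divided by gene length and library size) in Toxf/fPdcd1Cre libraries (SD, n = 3) and 793 ± 137 FPKM in Toxf/f libraries (SD, n = 2), and Ccl25, a chemokine of thymic epithelium, averaged 688 ± 54.7 FPKM in Toxf/fPdcd1Cre and 647 ± 62.9 FPKM in Toxf/f libraries. Such levels are at odds with a pure double-negative sort, and that name is used only as the labels give it. In such bulk libraries fewer cells of a type and less RNA per cell cannot be told apart. The targeted gene Tox averaged 16.5 ± 2.69 CPM (counts relative to the library size, scaled by the TMM method and not divided by gene length; SD, n = 3) in Toxf/fPdcd1Cre and 113 ± 11.5 CPM (SD, n = 2) in Toxf/f libraries, a log2 fold change of -2.78 ± 0.16 (SE; edgeR, p adjusted over all tested genes = 6.72e-06). For Tox alone an exact permutation test, two-sided, gave p = 0.1, the smallest that 3 libraries against 2 allow. Toxf/fPdcd1Cre replicate 1 held 1 count of the chromosome Y gene Ddx3y, against 843 to 1354 in the other libraries.

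The promoters of several of these genes share a short motif of the ETS family of transcription factors. PU.1, a member of that family, is required for macrophages and granulocytes to form, and its sites contain the letters AGGAAG. RefSeq windows on GRCm38.p6, from 250 bases before to 50 bases after the start of the gene, were matched for 7 of the 10 genes, and Csf1r, Adgre1 and C1qa had no entry. The letters AGGAAGT, searched on both strands, occurred in 5 of these 7 windows (Lyz2, C1qb, C1qc, Mpo and S100a8), against 9.35% of 32851 windows of the same length. Such a match is a run of letters and not a measured binding site. The stretches that lie upstream of both the RefSeq and the GENCODE start are given for those genes, 5′ to 3′ on the strand of the gene, because genes of both cell types share the motif. Capitals mark AGGAAGT or its reverse complement ACTTCCT.
Lyz2, chr10:117282322-117282522, minus strand: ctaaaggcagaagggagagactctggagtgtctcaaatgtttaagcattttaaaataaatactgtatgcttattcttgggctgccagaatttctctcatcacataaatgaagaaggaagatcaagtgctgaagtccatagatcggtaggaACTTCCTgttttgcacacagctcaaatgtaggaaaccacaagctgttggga
C1qb, chr4:136886201-136886450, minus strand: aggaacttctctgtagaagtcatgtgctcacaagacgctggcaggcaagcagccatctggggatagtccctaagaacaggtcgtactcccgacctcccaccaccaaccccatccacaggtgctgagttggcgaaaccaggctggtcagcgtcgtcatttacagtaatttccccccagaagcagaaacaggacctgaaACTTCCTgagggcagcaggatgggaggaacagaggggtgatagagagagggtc
C1qc, chr4:136893066-136893164, minus strand: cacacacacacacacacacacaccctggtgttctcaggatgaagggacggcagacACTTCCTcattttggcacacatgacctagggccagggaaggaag
Mpo, chr11:87793534-87793580, plus strand: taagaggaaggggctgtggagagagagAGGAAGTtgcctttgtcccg
S100a8, chr3:90668821-90668977, plus strand: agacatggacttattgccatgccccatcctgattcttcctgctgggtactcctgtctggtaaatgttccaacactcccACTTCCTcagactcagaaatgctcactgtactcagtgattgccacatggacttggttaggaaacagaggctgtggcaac
A looser motif of C/EBP factors, which also act in myeloid cells, TTNNGNAA, was in the windows of Lyz2, Cd68, C1qc, S100a8 and S100a9, and in 40.7% of all windows. The TATA box letters TATAAA were in those of S100a8 and S100a9, and in 13.6% of all windows. AGGAAGT was not found in the windows of Cd68 and S100a9, which says only that these letters are not in them.

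Between the genotypes, none of the 10 genes passed the test across all genes, and 2 macrophage genes came close to it. Lyz2 in Toxf/fPdcd1Cre libraries stood at 45.9% and C1qa at 69.4% of its Toxf/f level, with adjusted p just above the threshold of 0.05. Of the 7 macrophage genes 6 had a fold change below 0, as did 45.2% of all tested genes, and 5 had CPM values that were lower in every Toxf/fPdcd1Cre library than in any Toxf/f library. C1qa, C1qb and C1qc are in both counts, encode chains of 1 molecule and stand side by side, so the genes counted are not independent. The 3 granulocyte genes differed mainly from library to library within each genotype. All 10 genes passed the filter on low counts, and the count of called members was 0 of 10 in the quasi-likelihood test of edgeR, where 1.64% of 14121 tested genes were called. At an unadjusted p under 0.05 there were 3 of the 10 genes (Lyz2, C1qa and C1qc), all lower, against 10.3% of all tested genes, 7.26% lower and 3.08% higher. DESeq2 called C1qa alone among the 10 genes, where it called 2.54% of all tested genes, and limma-voom called Lyz2 alone, where it called 2.1%. With the identical files counted separately, Lyz2 and C1qa were called, as were 2.73% of all tested genes, and with limma on log2(FPKM + 1) none of the 10, as against 0.962% of all. The 5 macrophage genes whose libraries did not overlap (Csf1r, Lyz2, C1qa, C1qb and C1qc) stand against 13.5% of all tested genes that were lower without overlap; none of the 10 genes was higher without overlap, as 12.6% of all tested genes were.

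**Figure D1:**
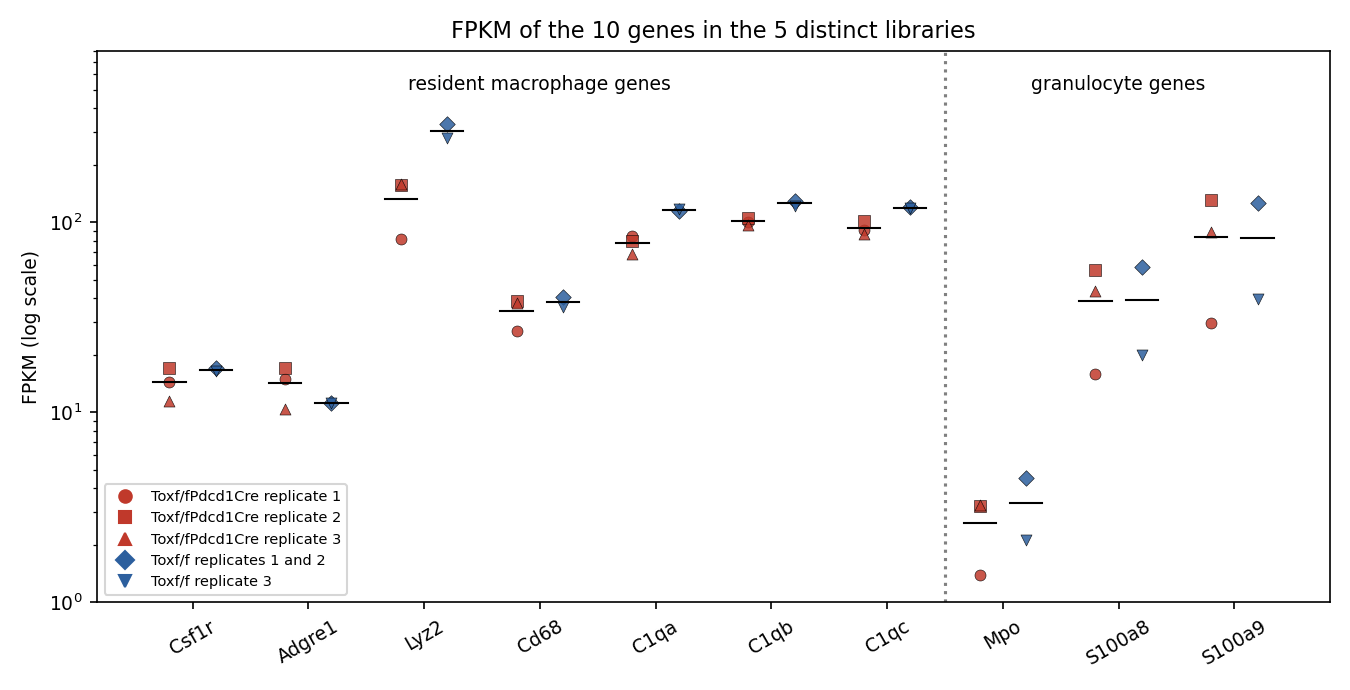
FPKM (log axis) of the 7 macrophage genes and the 3 granulocyte genes, with a point per distinct library, Toxf/fPdcd1Cre in red on the left of each pair and Toxf/f in blue on the right, and a bar at each mean. Lyz2 and the C1q genes are separated between the genotypes, while the granulocyte genes range over the same levels in both.

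**Figure D2:**
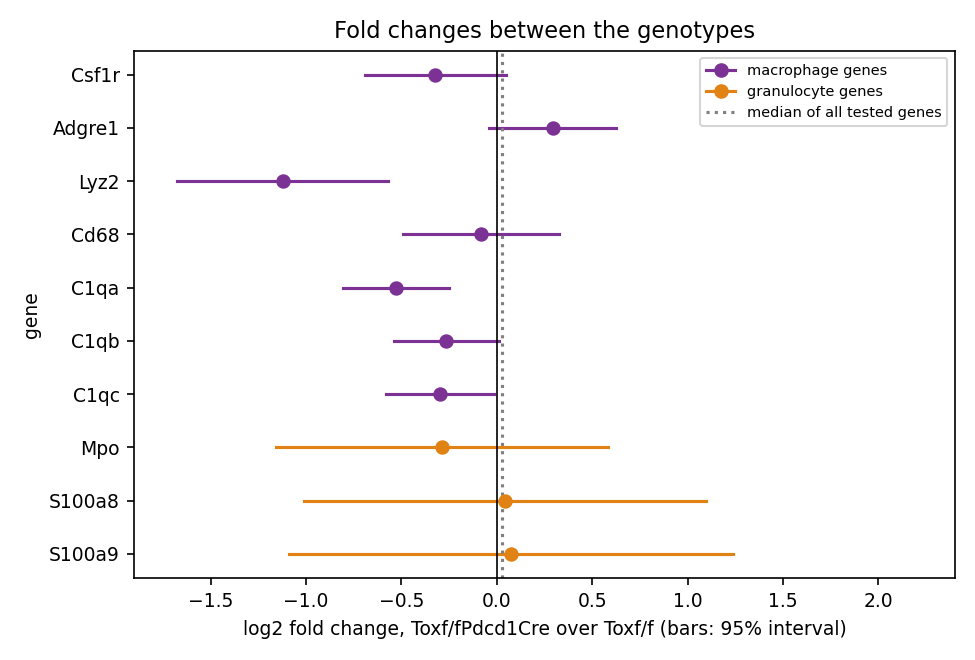
Log2 fold change of each gene, Toxf/fPdcd1Cre over Toxf/f, with its 95% interval from the edgeR fit. The intervals of Lyz2, C1qa and C1qc lie below 0, and those of the 3 granulocyte genes are the widest.

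The receptor genes of macrophages pointed in opposite directions, and neither passed the test. Csf1r (ENSMUSG00000024621) encodes the receptor for the growth factors CSF1 and IL-34. Its position in GRCm38 is chromosome 18, 61100598 to 61132149, plus strand, where it overlaps Hmgxb3 on the opposite strand, so that without strand in the counting its reads may include that gene's. Csf1r held 751, 768 and 512 estimated counts, or 14.5, 17.2 and 11.5 FPKM, in Toxf/fPdcd1Cre replicates 1 to 3, against 878 and 942 counts, or 17.1 and 16.5 FPKM, in the Toxf/f libraries. Toxf/fPdcd1Cre replicate 3 was the lowest, and the genotypes overlapped in FPKM although not in CPM. The log2 fold change was -0.32 ± 0.17 (SE), with a 95% interval of -0.69 to 0.05 and an adjusted p of 0.559 (edgeR). Adgre1 (ENSMUSG00000004730; chromosome 17, 57358691 to 57483527, plus strand) encodes F4/80, an adhesion receptor used to identify mouse macrophages. Adgre1 held 598, 657 and 515 counts (15.0, 17.1 and 10.5 FPKM) in Toxf/fPdcd1Cre libraries and 554 and 479 counts (11.2 and 11.3 FPKM) in Toxf/f libraries. It was the only one of the 7 macrophage genes with a fold change above 0, and its libraries overlapped. The log2 fold change was 0.29 ± 0.15, with a 95% interval of -0.04 to 0.63 and an adjusted p of 0.554 (edgeR).

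Lyz2 had the largest difference of the 10 genes. This gene (ENSMUSG00000069516; chromosome 10, 117277331 to 117282321, minus strand) encodes lysozyme M, an enzyme that cuts bacterial cell walls and is made by macrophages and by granulocytes. Lyz2 held 1537, 3358 and 3177 counts, or 82.0, 158 and 159 FPKM, in Toxf/fPdcd1Cre replicates 1 to 3, against 6672 and 5870 counts, or 329 and 278 FPKM, in the Toxf/f libraries. Every Toxf/fPdcd1Cre library was below both Toxf/f libraries, and replicate 1 was the lowest of all. The means were 133 ± 44.0 FPKM in Toxf/fPdcd1Cre (SD, n = 3) and 303 ± 36.0 FPKM in Toxf/f libraries (SD, n = 2). The log2 fold change was -1.12 ± 0.25 (SE), a level 2.18-fold lower, with a 95% interval of -1.68 to -0.57 and an adjusted p of 0.0539 (edgeR).

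The call on Lyz2 depended on which libraries were used. Lyz2 was past the threshold without Toxf/fPdcd1Cre replicate 1 (log2 fold change -0.89, adjusted p = 0.00893, edgeR) and without Toxf/fPdcd1Cre replicate 2 (-1.27, adjusted p = 0.0227). It was not past it without Toxf/fPdcd1Cre replicate 3 (-1.29, adjusted p = 0.0542), without the shared Toxf/f library (-0.97, adjusted p = 0.468) or without Toxf/f replicate 3 (-1.25, adjusted p = 0.328). In these 5 fits, in the order given, 4.36%, 1.43%, 0.811%, 0.337% and 0.215% of all tested genes were called. Its neighbour Lyz1 (chromosome 10, 117287797 to 117292868) is a close copy, known in mice from Paneth cells of the gut, and the counts of both genes were not whole numbers in the other 4 libraries, although whole in Toxf/fPdcd1Cre replicate 1, so reads may be split between them. Lyz1 was at 6.34, 4.55 and 3.13 FPKM in Toxf/fPdcd1Cre libraries and 9.45 and 15.2 FPKM in Toxf/f libraries. Lyz1 fell by 1.35 on the log2 scale (adjusted p = 0.0401, edgeR). It lost this call without any single library except Toxf/fPdcd1Cre replicate 1, with adjusted p of 0.0633 without Toxf/fPdcd1Cre replicate 2, 0.123 without replicate 3, 0.115 without the shared Toxf/f library and 0.604 without Toxf/f replicate 3.

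Cd68 (ENSMUSG00000018774; chromosome 11, 69664213 to 69666153, minus strand) encodes a glycoprotein of the lysosomal membrane. Cd68 held 467, 768 and 703 counts (26.7, 38.6 and 37.7 FPKM) in Toxf/fPdcd1Cre libraries and 764 and 704 counts (40.4 and 35.7 FPKM) in Toxf/f libraries. Toxf/fPdcd1Cre replicate 1 was low, as it was for Lyz2, and the other libraries of both genotypes lay together. The log2 fold change was -0.08 ± 0.19, with a 95% interval of -0.49 to 0.33 (adjusted p = 0.949, edgeR), and its sign turned without Toxf/fPdcd1Cre replicate 1 (0.05) or without the shared Toxf/f library (0.03).

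The C1q genes lay below their Toxf/f levels in all Toxf/fPdcd1Cre libraries. C1qb, C1qc and C1qa encode the chains of the C1q molecule and stand side by side on chromosome 4 on the minus strand, within 18675 bases. C1qb (ENSMUSG00000036905) runs from 136880129 to 136886187, C1qc (ENSMUSG00000036896) from 136889804 to 136893065 and C1qa (ENSMUSG00000036887) from 136895917 to 136898803. None of them overlaps another listed gene. Their summed level was 277, 287 and 252 FPKM in Toxf/fPdcd1Cre replicates 1 to 3, against 365 and 359 FPKM in the Toxf/f libraries. The spread among libraries of 1 genotype was small for these genes, and the highest CPM of C1qa was 1.15 times the lowest among Toxf/fPdcd1Cre libraries and 1.00 times among Toxf/f libraries.

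Of the C1q chains, C1qa differed most. C1qa held 1255, 1338 and 1082 counts, or 84.7, 79.4 and 68.5 FPKM, in Toxf/fPdcd1Cre libraries, against 1843 and 1960 counts, or 115 and 117 FPKM, in Toxf/f libraries. Its log2 fold change was -0.53 ± 0.13, with a 95% interval of -0.80 to -0.25 and an adjusted p of 0.0678 (edgeR). C1qa was past the threshold without Toxf/fPdcd1Cre replicate 1 (-0.60, adjusted p = 0.0314, edgeR), and its adjusted p was between 0.0901 and 0.448 when any of the other libraries was left out. C1qb averaged 101 ± 4.29 FPKM in Toxf/fPdcd1Cre and 126 ± 5.23 FPKM in Toxf/f libraries, a log2 fold change of -0.26 ± 0.12 with a 95% interval of -0.54 to 0.01 (adjusted p = 0.503, edgeR). C1qc averaged 93.3 ± 7.59 FPKM in Toxf/fPdcd1Cre and 119 ± 1.36 FPKM in Toxf/f libraries, a log2 fold change of -0.30 ± 0.13 with a 95% interval of -0.58 to -0.01 (adjusted p = 0.453, edgeR). In FPKM, the level of C1qa over that of C1qb was 0.844, 0.751 and 0.704 in Toxf/fPdcd1Cre libraries and 0.884 and 0.957 in Toxf/f libraries. That ratio was chosen after the values were seen and was not tested.

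The granulocyte genes varied more within a genotype than between the genotypes. S100a8 (ENSMUSG00000056054; chromosome 3, 90668978 to 90670035, plus strand) and S100a9 (ENSMUSG00000056071; chromosome 3, 90692632 to 90695721, minus strand) are neighbours 22596 bases apart, and their proteins pair to form calprotectin, which binds calcium and zinc. S100a9 held 215, 1095 and 691 counts, or 29.4, 132 and 88.7 FPKM, in Toxf/fPdcd1Cre libraries, against 1004 and 324 counts, or 127 and 39.4 FPKM, in the shared Toxf/f library and in Toxf/f replicate 3. The genotypes overlapped fully, and the highest CPM was 4.76 times the lowest among Toxf/fPdcd1Cre libraries and 3.29 times among Toxf/f libraries. Its log2 fold change was 0.08 ± 0.53, with a 95% interval of -1.09 to 1.24 (adjusted p = 0.985, edgeR). This interval reaches from 47.1% to 236% of the Toxf/f level.

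S100a8 followed the same order of libraries. It held 110, 440 and 320 counts (15.9, 55.9 and 43.3 FPKM) in Toxf/fPdcd1Cre libraries and 437 and 156 counts (58.3 and 20.0 FPKM) in the Toxf/f libraries. S100a8 had a log2 fold change of 0.04 ± 0.48, with a 95% interval of -1.01 to 1.10 (adjusted p = 0.989, edgeR). The level of S100a9 over that of S100a8 in FPKM stayed between 1.85 and 2.36 in the 5 libraries, while each gene alone moved several-fold. The direction of both genes rested on single libraries: without the shared Toxf/f library their log2 fold changes were 1.18 for S100a9 and 1.04 for S100a8, and without Toxf/f replicate 3 they were -0.54 for both. Without Toxf/fPdcd1Cre replicate 2 they were -0.43 for S100a9 and -0.34 for S100a8, and without replicate 1 they were 0.46 and 0.39, in the same order of genes.

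Mpo (ENSMUSG00000009350; chromosome 11, 87793581 to 87804413, plus strand) encodes myeloperoxidase, an enzyme of the granules laid down in granulocyte precursors. It was the least abundant of the 10 genes, with 49, 126 and 121 counts (1.40, 3.23 and 3.26 FPKM) in Toxf/fPdcd1Cre libraries and 169 and 87 counts (4.50 and 2.14 FPKM) in Toxf/f libraries. The same pair of libraries was lowest as for S100a8 and S100a9, namely Toxf/fPdcd1Cre replicate 1 and Toxf/f replicate 3, and the genotypes overlapped. The log2 fold change was -0.29 ± 0.40, with a 95% interval of -1.16 to 0.58 (adjusted p = 0.906, edgeR), and it became 0.33 without the shared Toxf/f library.

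**Figure D3:**
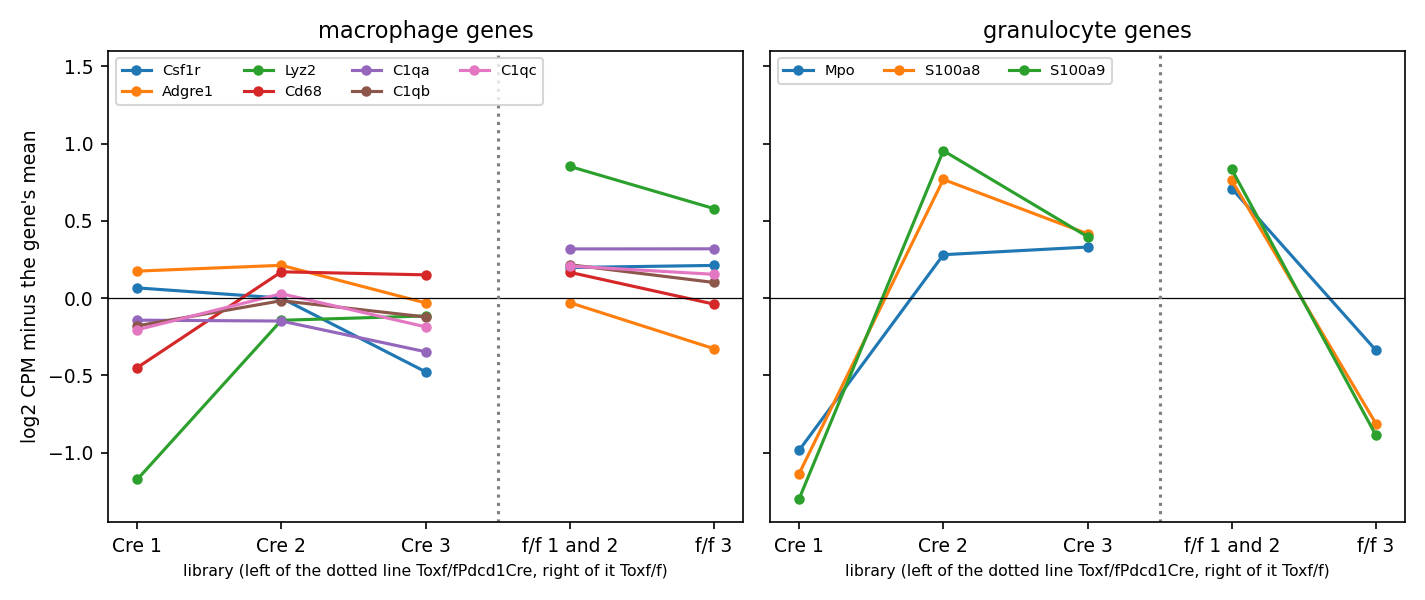
Log2 CPM of each gene minus its own mean over the 5 libraries, macrophage genes on the left and granulocyte genes on the right, with Toxf/fPdcd1Cre replicates 1 to 3 (Cre 1 to Cre 3) left of each dotted line and the Toxf/f libraries right of it; lines join the points of a gene within a genotype. All 3 granulocyte genes are lowest in Toxf/fPdcd1Cre replicate 1 and Toxf/f replicate 3, while the C1q genes are higher in both Toxf/f libraries.

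Set side by side, the sum of the 7 macrophage genes separated the genotypes and that of the 3 granulocyte genes did not. The summed level of the 7 macrophage genes was 415, 517 and 471 FPKM in Toxf/fPdcd1Cre replicates 1 to 3, against 763 and 700 FPKM in the Toxf/f libraries, with no overlap. The summed level of the 3 granulocyte genes was 46.7, 191 and 135 FPKM in Toxf/fPdcd1Cre libraries and 190 and 61.5 FPKM in Toxf/f libraries, with full overlap. Lyz2 made up 19.9%, 31.3% and 34.6% of the summed macrophage counts in Toxf/fPdcd1Cre libraries and 44.1% and 40.8% in Toxf/f libraries. Without it the macrophage sum was still lower in every Toxf/fPdcd1Cre library, at 6198, 7372 and 6001 counts against 8453 and 8513 counts in Toxf/f libraries. Of these counts the C1q genes held 4382, 5179 and 4271 in Toxf/fPdcd1Cre libraries and 6257 and 6388 in Toxf/f libraries. Csf1r, Adgre1 and Cd68 each overlapped between the genotypes in FPKM. The separation of the macrophage sum thus came mainly from Lyz2 and the C1q genes.

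The share of macrophage to granulocyte RNA did not separate the genotypes. Summed macrophage counts were 20.7, 6.46 and 8.11 times the summed granulocyte counts in Toxf/fPdcd1Cre libraries, against 9.39 and 25.4 times in Toxf/f libraries. The mean log2 ratio was lower by 0.59 in Toxf/fPdcd1Cre libraries (difference -0.59), which is less than the pooled SD of 0.93 between libraries of a genotype, and the difference became 0.13 without Toxf/f replicate 3 and -1.30 without the shared Toxf/f library. With Lyz2 left out of the macrophage sum the difference was -0.28. The median log2 fold change was -0.30 over the 7 macrophage genes and 0.04 over the 3 granulocyte genes, against 0.03 over all tested genes. The standard errors ranged from 0.12 to 0.25 for macrophage genes and from 0.40 to 0.53 for granulocyte genes, so that a change of the size seen for C1qa would not have been detectable for the granulocyte genes at this spread. Whether the fold changes of both groups of genes differ was not tested.

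**Figure D4:**
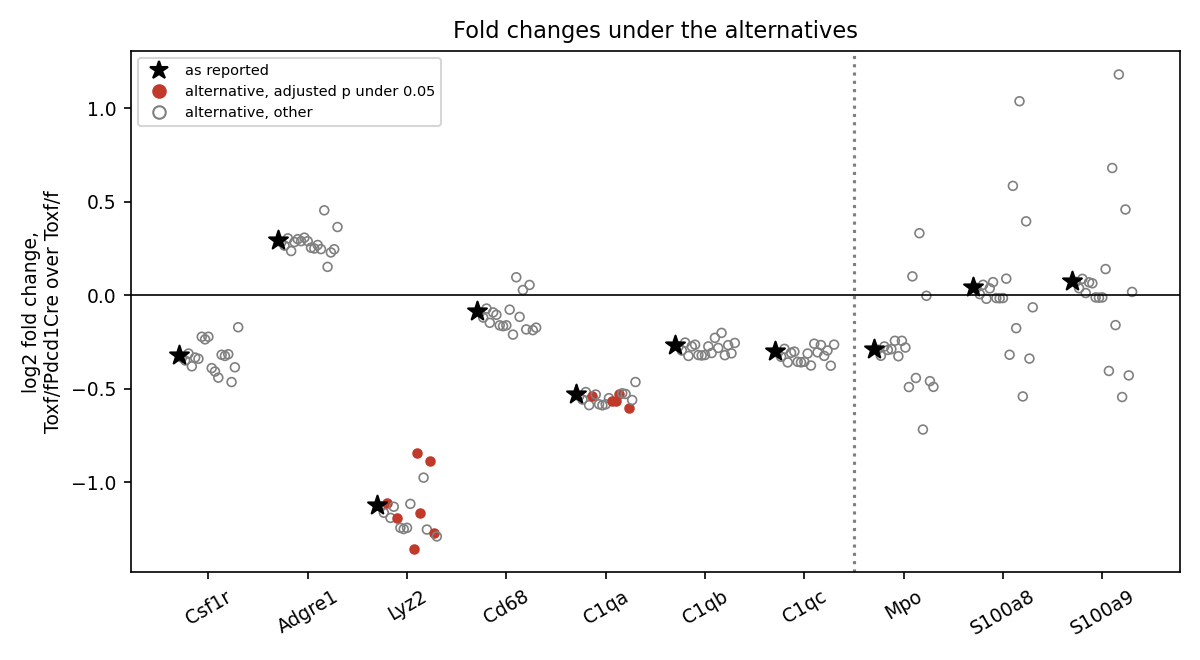
Log2 fold change of each gene, Toxf/fPdcd1Cre over Toxf/f, as reported (star) and under each alternative to the processing (circles; filled red where the adjusted p is under 0.05). Lyz2 and C1qa stay below 0 throughout and pass the threshold in 7 and 5 of 18 alternatives, while S100a8, S100a9, Mpo and Cd68 fall on both sides of 0.

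A wider list of macrophage genes held 1 called gene. This list and those that follow hold none of the 10 genes. Of 37 tested genes of macrophage identity, growth factors, receptors for dying cells and digestion, 1 was called lower and 0 higher, where 1.51% of all tested genes were called lower and 0.135% higher, and 22 of the 37 had a fold change below 0, against 45.2% of all tested genes, with a median of -0.09. The called gene was Ctss, the protease cathepsin S, which also trims the invariant chain of MHC class II in dendritic cells and B cells. Ctss was at 69.2, 64.8 and 53.0 FPKM in Toxf/fPdcd1Cre libraries and at 116 and 154 FPKM in Toxf/f libraries. Ctss fell by 1.06 on the log2 scale (edgeR, adjusted p = 0.00458). Leaving out Toxf/f replicate 3 ended this call (-0.86, adjusted p = 0.159, edgeR). In that fit 1 other gene of the list was called lower, of 38 tested, where 0.215% of all tested genes were called. The most abundant members of the list were Apoe, which carries lipids, Ctsd, a lysosomal protease, and Vcam1, an adhesion molecule that iron-recycling macrophages carry. Apoe averaged 314 ± 92.2 FPKM in Toxf/fPdcd1Cre and 406 ± 163 FPKM in Toxf/f libraries. Ctsd averaged 301 FPKM in Toxf/fPdcd1Cre and 315 FPKM in Toxf/f libraries, with a log2 fold change of 0.00 ± 0.15 (SE), and Vcam1 averaged 107 ± 11.8 FPKM in Toxf/fPdcd1Cre and 111 ± 1.31 FPKM in Toxf/f libraries. None of these 3 passed the test.

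Of 17 tested genes of the complement system, in which C1q opens the classical pathway, 3 were called lower and 0 higher. Over all tested genes these shares were 1.51% and 0.135%. Of the 17 genes, 14 had a fold change below 0, against 45.2% of all tested genes, with a median of -0.39. The 2 most abundant of them were not called. Calr, the chaperone calreticulin, which also binds C1q, averaged 160 ± 21.2 FPKM in Toxf/fPdcd1Cre and 200 ± 15.0 FPKM in Toxf/f libraries, with a log2 fold change of -0.27 ± 0.14 (SE; adjusted p = 0.581, edgeR). Itgb2, the beta chain of complement receptor integrins, averaged 101 ± 14.4 FPKM in Toxf/fPdcd1Cre and 127 ± 8.66 FPKM in Toxf/f libraries, with a log2 fold change of -0.35 ± 0.15 (SE; adjusted p = 0.428, edgeR). C3, the central protein of the cascade, was at 15.3, 32.6 and 33.3 FPKM in Toxf/fPdcd1Cre libraries, against 92.1 and 95.1 FPKM in Toxf/f libraries. C3 fell by 1.32 on the log2 scale (adjusted p = 0.0172, edgeR). Cfb, factor B of the alternative pathway, was at 3.57, 3.45 and 3.18 FPKM in Toxf/fPdcd1Cre and at 11.6 and 9.31 FPKM in Toxf/f libraries, and fell by 1.53 (adjusted p = 0.00126). The protease gene C1s1, whose product is bound to C1q in the C1 complex, fell by 0.72 (adjusted p = 0.0413). Cfb kept its call whichever library was left out, with adjusted p from 0.00150 to 0.0468. C3 lost it without the shared Toxf/f library (0.131) and without Toxf/f replicate 3 (0.334), and C1s1 lost it without these libraries (0.267 and 0.361) and without Toxf/fPdcd1Cre replicate 3 (0.174).

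The wider granulocyte list held no called gene, and 12 of its 23 tested genes had the library pattern of Mpo, S100a8 and S100a9. Of the 23 genes, 0 were called in edgeR and 2 had an unadjusted p under 0.05, Hdc lower and Prg2 higher (named after their values were seen), and the median was -0.05. That median was 0.48 without the shared Toxf/f library and -0.36 without Toxf/f replicate 3, and 1 gene of the list was called lower without Toxf/fPdcd1Cre replicate 1. Ngp, neutrophilic granule protein, held 170, 1230 and 913 counts in Toxf/fPdcd1Cre libraries and 1178 and 347 counts in Toxf/f libraries. Ltf, the iron-binding lactoferrin, held 197, 543 and 453 counts in Toxf/fPdcd1Cre libraries and 478 and 184 counts in Toxf/f libraries. Gfi1, a repressor needed for neutrophils to form and also active in T cell precursors, held 1285, 1690 and 1287 counts in Toxf/fPdcd1Cre libraries and 1340 and 1441 counts in Toxf/f libraries, and did not show the pattern of Ngp and Ltf. In 12 of the 23 genes Toxf/fPdcd1Cre replicate 1 and Toxf/f replicate 3 were the lowest libraries in CPM, as they were in 2 of the 37 macrophage genes and in 12% of all tested genes. This pattern was noticed in the libraries and has no test of its own.

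The lists of dendritic and B cell genes held called genes as well. Over all tested genes 1.51% were called lower and 0.135% higher. Of 20 dendritic cell genes 5 were called lower and 0 higher, with a median of -0.48, and their summed level ranged from 1055 to 1249 FPKM in Toxf/fPdcd1Cre libraries and from 1690 to 1874 FPKM in Toxf/f libraries. Among the called genes were Ccl22, a chemokine, with a log2 fold change of -2.81, H2-Eb1, an MHC class II chain, with -0.91, the receptor gene Flt3 with -1.05 and Cd74 with -0.74, while the abundant chemokine receptor gene Ccr9 had -0.12 and was not called. The invariant chain gene Cd74 averaged 466 ± 67.8 FPKM in Toxf/fPdcd1Cre and 808 ± 76.8 FPKM in Toxf/f libraries. Ccr9 averaged 361 ± 35.7 FPKM in Toxf/fPdcd1Cre and 412 ± 3.08 FPKM in Toxf/f libraries. Cd74, Ccr9 and H2-Eb1 made up most of the summed level of the dendritic cell list. Cd74 and H2-Eb1 are also active in B cells, and which cells made the RNA of Ccr9 was not tested. That sum therefore does not measure dendritic cell RNA alone. Of 10 B cell genes 2 were called lower, the antibody genes Igkc (-3.45) and Jchain (-3.80), while Ighm (-0.23) and Cd79b (0.07) were not called, with a summed level of 377 to 461 FPKM in Toxf/fPdcd1Cre and 680 to 845 FPKM in Toxf/f libraries. No listed gene of either type was at 0 in all libraries, and the numbers called were 5 and 2 without Toxf/fPdcd1Cre replicate 1 as well. The dendritic cell calls numbered 0 without either Toxf/f library, 4 without Toxf/fPdcd1Cre replicate 2 and 1 without replicate 3, while 2 B cell genes were called in each of these fits. Of 11 monocyte genes 2 were called lower, Lyz1 and Nr4a1, and 0 without either Toxf/f library. The monocyte calls were 3 lower without Toxf/fPdcd1Cre replicate 1, 1 lower and 1 higher without replicate 2, and 1 lower without replicate 3. Which cells made the RNA of Lyz1 and Nr4a1 was not tested, so their calls do not measure monocyte RNA alone. The uncalled Plac8 and F13a1 had log2 fold changes of 0.56 and 0.14. The summed level of the monocyte list was 306 to 409 FPKM in Toxf/fPdcd1Cre and 349 to 370 FPKM in Toxf/f libraries. Of 16 thymocyte genes 1 was called lower, of 14 thymic epithelial and stromal genes 1, and of 6 tested erythroid and platelet genes 0. At an unadjusted p under 0.05 there were 3 of the 6, against 10.3% of all tested genes. Without Toxf/fPdcd1Cre replicate 2, 4 of the 6 erythroid and platelet genes were called lower, with a median of -0.92. Over all tested genes 4.36%, 1.43% and 0.811% were called in either direction without Toxf/fPdcd1Cre replicate 1, 2 and 3. These shares were 0.337% without the shared Toxf/f library and 0.215% without Toxf/f replicate 3. The thymocyte calls numbered 2 without Toxf/fPdcd1Cre replicate 1 and 0 when any other library was left out. The epithelial calls numbered 2 without Toxf/fPdcd1Cre replicate 1, 1 without replicate 2 and 0 when any other library was left out. The part of dendritic and B cell RNA in the levels of Lyz2 and the C1q genes was not tested.

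**Figure D5:**
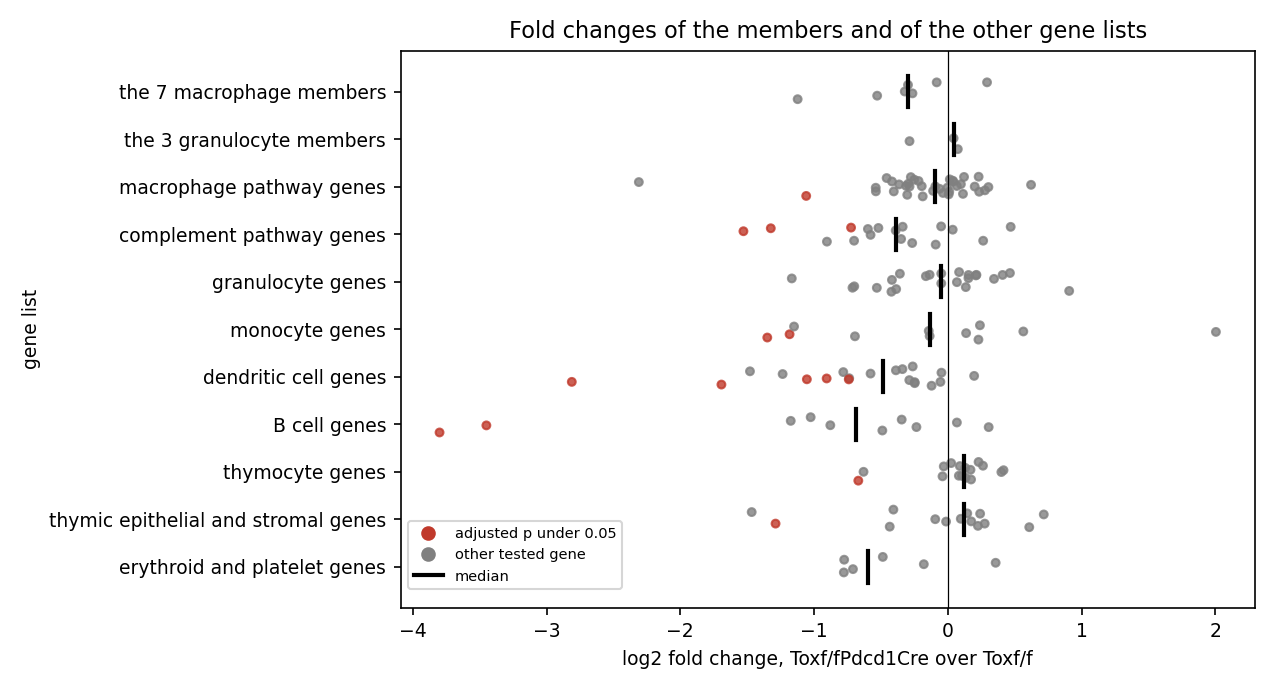
Log2 fold change, Toxf/fPdcd1Cre over Toxf/f, of every tested gene of the 7 macrophage and 3 granulocyte members and of 9 further lists, with a black bar at each median and red points for an adjusted p under 0.05. The called genes of the dendritic cell, B cell and complement lists lie to the left of 0, and both granulocyte rows are centred near 0.

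Among 9344 further tested genes with a mean of at least 10 CPM, those with a library profile nearest to the mean of C1qa, C1qb and C1qc over the 5 libraries were Stat2, Arrb2 and Psme1. Their centred log2 CPM differed from that mean by at most 0.05, 0.06 and 0.07 in any library. Nearest to the mean of S100a8 and S100a9 were Cfd, Chil3 and Zfp36l2, with largest differences of 0.18, 0.40 and 0.52. With 5 libraries such likeness is a description only.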

How the data were processed

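The data are RNA sequencing of sorted mouse thymocytes. For each sample the authors deposited a table with an estimated count per gene, not scaled, and an FPKM value per gene, per the file headers. Reads had been processed with fastp 0.18.0, HISAT2 and StringTie 1.3.1, per the submitters' processing notes. The genome build, annotation, counter and strand setting: not given in the sources used here. Per library 8.81% to 9.84% of counts were not whole.

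Estimated counts were rounded, filtered with filterByExpr (14121 of 22298 genes), scaled by TMM and tested by the quasi-likelihood method of edgeR 4.0.16 (R 4.3.3), with 3 Toxf/fPdcd1Cre libraries over 2 of Toxf/f, with Benjamini-Hochberg adjustment over all tested genes and a threshold of 0.05. Intervals at 95% come from the same fit. Alternatives used other scaling and filters, DESeq2 1.42.0, limma 3.58.1 (voom, and log2(FPKM + 1) or log2(FPKM + 0.1)), age, a replicate block, the identical files counted separately, and each library left out. On simulated counts for this comparison, with 200 of 14121 genes changed, the test recovered 73.5% at 2-fold and 91.5% at 4-fold, with 8 and 13 false calls.

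The members and lists were chosen with earlier results of these data known. Besides the 10 members and Tox, the rule named up to 4 called genes and the 3 most abundant genes of each list, and the 3 nearest profiles; for the thymocyte, epithelial and erythroid lists the counts of calls are given, with Cd8b1 and Ccl25 alone named, and 1 gene that the rule names is not reported here. Positions are from GENCODE M21 on GRCm38, whereas the authors' own build is unknown. Promoters are from RefSeq. Figures were drawn with matplotlib 3.10.9.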

Additional observations from a re-analysis of the deposited data

How the results depend on the processing

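Lyz2 and C1qa kept their direction under all 18 alternatives, with log2 fold changes from -1.36 to -0.84 and from -0.60 to -0.46, as did Csf1r, Adgre1, C1qb and C1qc, which were never called; Tox was called in all. No granulocyte member was called under any alternative, and Mpo had no value with at least 10 CPM in 3 libraries. The macrophage members called, 0 as reported, were 1 with no low-count filter (Lyz2), 1 with DESeq2 (C1qa), 1 with limma-voom (Lyz2), and 2 (Lyz2 and C1qa) with a replicate block and with the identical files counted separately, which understates the spread; leaving out each library gave 0 to 2.

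Over all genes, 232 were called as reported, 417 with no low-count filter, 67 with at least 10 CPM in 3 libraries, 359 with DESeq2, 113, 101 and 44 with limma on log2(FPKM + 1), on log2(FPKM + 0.1) and with no filter, 125 with age as a covariate, 380 with the identical files counted separately, and 31 to 606 when a library was left out. Genes called over all the lists numbered 15, and 4 with at least 10 CPM, 9 with either pseudocount, 2 with limma and no filter, 8 with age, and 4 to 19 when a library was left out. The difference of the macrophage to granulocyte ratio, -0.59, ranged from -1.30 to 0.13 when a library was left out.

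The replicate block, with the shared Toxf/f library as number 1, called 435 genes and 29 listed genes, and as number 2, chosen after seeing the data, 868 and 27. Same-numbered libraries had deviations correlated at -0.13 for replicate 3. Those of the shared library were correlated at -0.15 with replicate 1 and at 0.07 with replicate 2. Deviations of 2 Toxf/f libraries from their own mean mirror each other, so these values cannot decide whether the numbers paired the samples. Replicate 3 had the same age in both genotypes and differed in age from the other replicates. In the block fits S100a8 turned to -0.32 and S100a9 to -0.40 (number 1), and Cd68 to 0.10 and Mpo to 0.10 (number 2), all uncalled. Other uncalled values turned sign as well. S100a8 was -0.0191 with at least 10 CPM, -0.0151 and -0.0164 in the FPKM fits and -0.18 with the identical files counted separately, and S100a9 was -0.0119 and -0.0131 in the FPKM fits and -0.16 with those files separate. Leaving out a library gave -0.54 to 1.04 for S100a8, -0.54 to 1.18 for S100a9, -0.72 to 0.33 for Mpo and -0.19 to 0.0549 for Cd68, with 0.0279 for Cd68, 0.39 for S100a8 and 0.46 for S100a9 among the values between. The causes were not tested. With 2 Toxf/f libraries the spread of that genotype rests on a single pair, and depth limits Mpo most, with 49 to 169 counts per library.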
